A study of Homo sapiens with 2 samples.

Results

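The genes described here encode fibronectin and other glycoproteins and proteoglycans of the extracellular matrix, taken as the rows of the deposited table with the symbols FN1, TNC, THBS1, SPARC, TGFBI, HSPG2, AGRN, NID1, NID2 and FBN2. They are 10 of 61806 genes in the table. The data come from SAS, an established human cell line derived from a tongue squamous cell carcinoma and labelled as epithelial and wild type. One library was made from cells transfected with an siRNA against COL17A1 (siRNA sequence #2) and one from cells transfected with a negative control siRNA, both with a Lipofectamine reagent and both harvested 48 hours later. The COL17A1 siRNA library held 21601195 counts and the control siRNA library 15980152 counts. Each group has a single library, so no difference can be checked against replicates, a single siRNA was used, and an effect of losing COL17A1 cannot be told apart from other effects of that siRNA or from variation between cultures. No p-value is given. Intervals in brackets are exact 95% intervals that cover counting error only.

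Matrix glycoproteins are secreted proteins that build the scaffold around cells and are read by cell surface receptors, chiefly integrins. Fibronectin is secreted as a dimer and pulled into fibrils by integrins, and tenascin C, thrombospondin 1, SPARC and the TGF-beta induced protein bind to that scaffold and modify adhesion. Perlecan, agrin and the nidogens belong to the basement membrane, the sheet under epithelia to which collagen XVII, the product of COL17A1, anchors basal cells. Fibrillin 2 forms microfibrils. In squamous carcinoma, fibronectin, tenascin C and the TGF-beta induced protein are well-known components of the tumour matrix, made by stromal cells and in part by the tumour cells.

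The promoters of 3 of these genes are shown because FN1 and HSPG2 had the lowest log2 ratios among those with enough counts and SPARC the highest. Each run covers 250 bases before to 50 bases after the annotated start in RefSeq (GRCh38.p14), at chr2:215436019-215436318 for FN1, chr1:21937261-21937560 for HSPG2 and chr5:151686866-151687165 for SPARC, all on the minus strand and written 5′ to 3′ in the direction of the gene. Capitals mark the palindromic cAMP response element TGACGTCA, the CCAAT box and the GC box GGGCGG, searched on both strands.
FN1: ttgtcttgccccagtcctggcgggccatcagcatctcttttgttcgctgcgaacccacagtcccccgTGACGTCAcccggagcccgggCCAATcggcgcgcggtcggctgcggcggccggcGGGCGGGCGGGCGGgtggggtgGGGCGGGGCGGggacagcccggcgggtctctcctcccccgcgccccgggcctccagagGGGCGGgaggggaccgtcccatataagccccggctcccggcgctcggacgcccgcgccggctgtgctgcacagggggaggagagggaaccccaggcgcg
HSPG2: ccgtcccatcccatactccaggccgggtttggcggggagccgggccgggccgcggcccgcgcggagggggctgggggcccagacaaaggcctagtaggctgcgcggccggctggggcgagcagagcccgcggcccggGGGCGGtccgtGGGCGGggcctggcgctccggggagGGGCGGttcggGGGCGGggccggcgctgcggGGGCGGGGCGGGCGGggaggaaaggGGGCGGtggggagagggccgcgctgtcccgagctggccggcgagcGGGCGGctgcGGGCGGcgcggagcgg
SPARC: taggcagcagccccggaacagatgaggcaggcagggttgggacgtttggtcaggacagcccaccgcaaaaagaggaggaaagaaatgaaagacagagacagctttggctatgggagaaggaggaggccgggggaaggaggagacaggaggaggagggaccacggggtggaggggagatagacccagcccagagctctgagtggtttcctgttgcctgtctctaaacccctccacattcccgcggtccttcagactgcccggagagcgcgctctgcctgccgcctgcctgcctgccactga
The window of FN1 held TGACGTCA once, with its first base at -183 from the start, beside 1 CCAAT box and 6 overlapping or single GC boxes. TGACGTCA stood in 1.85% of 35116 promoters of this length and, of the 9 matrix genes with a sequence, in that of FN1 alone. HSPG2 had 10 GC boxes and neither other motif, and these letters were not in the window of SPARC. GC boxes stood in 8 of the 9 windows and in 45.0% of all promoters, and CCAAT in 5 of the 9 and in 34.6% of all promoters. These matches describe the sequence and no binding was measured.

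The targeted gene was low in the library labelled as its knockdown. COL17A1 (ENSG00000065618, GRCh38 chromosome 10, 104031286 to 104085880, minus strand) had 411 counts in the COL17A1 siRNA library, against 3116 in the control siRNA library. After scaling by trimmed mean of M-values (TMM) factors that is 18.8 CPM with the COL17A1 siRNA and 198 CPM with the control siRNA, counts set to a common library total. Its log2 ratio, COL17A1 siRNA over control siRNA as throughout, was -3.39 [-3.55 to -3.25]. All 12 epithelial markers, among them EPCAM, TP63 and keratins, were measured, with a summed level of 6522 CPM in the COL17A1 siRNA library and 5583 CPM in the control siRNA library. Of these markers 9 had a log2 ratio above 0 and 3 below it. KRT5 was past 1.5-fold at 0.60, and TP63 lay within it at -0.47. No other marker was past it, where 12.2% of genes averaging 1 CPM or more were higher and 11.7% lower. The median of the 12 was 0.11, against 0.03 over those genes. After a linear adjustment for exonic size, GC content and abundance, described below, it was -0.03. KRT5 was then at 0.46, under 1.5-fold, and PERP, another of these markers, at 0.75, past it. The 12 fibroblast markers summed to 13.3 CPM in the COL17A1 siRNA library and 19.5 CPM in the control siRNA library, and COL1A2, COL3A1, DPT, THY1 and POSTN had no count in either. FAP made up most of that sum, at 10.8 CPM in the COL17A1 siRNA library and 17.9 CPM in the control siRNA library. Its log2 ratio of -0.72 [-0.98 to -0.47] was past 1.5-fold, while COL1A1 was at 0.59 [-0.31 to 1.61]. After the adjustment FAP was at -0.42, under 1.5-fold, and COL1A1 at 0.46. A count of 0 allows up to 0.139 CPM in the COL17A1 siRNA library and 0.188 CPM in the control siRNA library. The 8 endothelial markers summed to 2.01 CPM with the COL17A1 siRNA and 2.09 CPM with the control siRNA, with PECAM1 and KDR at 0 counts in both. The 9 leukocyte markers summed to 9.59 CPM with the COL17A1 siRNA and 8.56 CPM with the control siRNA, with PTPRC at 0 in both and CD14 and ITGB2 as the largest terms, at 5.21 and 4.25 CPM in the COL17A1 siRNA library and 2.98 and 5.20 CPM in the control siRNA library.

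The 10 genes spanned several orders of magnitude per length, with TGFBI, FN1, THBS1 and SPARC at the top and the nidogens near 0 on 1 or 2 counts. FPKM, fragments per kilobase of exonic length at a common library size, as deposited, compares levels between genes. TGFBI stood at 310.27 FPKM in the COL17A1 siRNA library and 317.91 FPKM in the control siRNA library. In the COL17A1 siRNA library FN1 stood at 192.15 FPKM, THBS1 at 183.15 FPKM and SPARC at 177.6 FPKM, against 315.53, 209.69 and 125.84 FPKM for the same genes in the control siRNA library. In the control library the counting intervals of TGFBI [315 to 321 FPKM] and FN1 [313 to 318 FPKM] overlapped, so these neighbours could not be ordered there. In the COL17A1 siRNA library they lay apart, at [308 to 313 FPKM] for TGFBI and [191 to 194 FPKM] for FN1. In the COL17A1 siRNA library AGRN followed at 9.86 FPKM, TNC at 4.58, HSPG2 at 0.34 and FBN2 at 0.05 FPKM, against 11.94, 5.77, 0.63 and 0.09 FPKM for the same genes in the control siRNA library. NID1 had 1 count in the COL17A1 siRNA library and 2 in the control siRNA library, and NID2 had 2 in the COL17A1 siRNA library and 1 in the control siRNA library. Both nidogens thus lay at or under the limit that a count of 0 allows, no ratio is given for them, and a difference was not detectable at this depth.

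**Figure D1:**
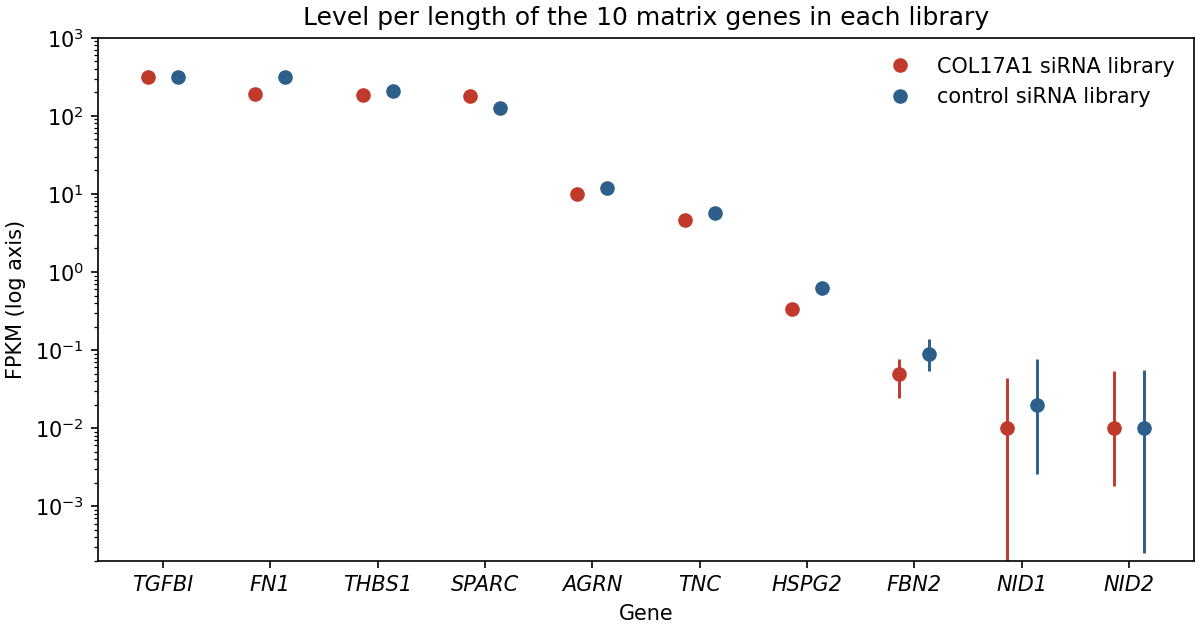
FPKM on a log axis of the 10 matrix genes, with the COL17A1 siRNA library left of the control siRNA library; points are the deposited values and lines exact 95% intervals of counting error, hidden by the point where counts are high. FN1 is at 192.15 FPKM with the COL17A1 siRNA and 315.53 FPKM with the control siRNA, SPARC at 177.6 FPKM with the COL17A1 siRNA and 125.84 FPKM with the control siRNA, and NID1 and NID2 rest on 1 or 2 counts.

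The order of these levels depends on the length used. The deposited exonic size counts every annotated exon of a gene and is 17216 bases for FN1 and 7717 bases for TGFBI, against 7898 and 2804 bases for the principal transcript in GENCODE release 29, a ratio of 2.18 and 2.75. Over the principal transcript TGFBI would stand at 854 FPKM in the COL17A1 siRNA library and 875 FPKM in the control siRNA library, and FN1 at 419 FPKM with the COL17A1 siRNA and 688 FPKM with the control siRNA. TGFBI then lay above FN1 in both libraries. For SPARC and THBS1, whose sizes exceed the principal transcript by 1.25 and 1.18 times, the order in the COL17A1 siRNA library turned, with SPARC at 223 FPKM and THBS1 at 216 FPKM. This comparison was chosen after the data were seen.

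A few genes held nearly all the counts of the group. The 10 genes took 0.836% [0.832 to 0.840] of all counts in the COL17A1 siRNA library and 1.06% [1.05 to 1.06] in the control siRNA library. FN1, TGFBI, THBS1 and SPARC together made up 98.1% of these counts in each library. FN1 made up 39.6% of them in the COL17A1 siRNA library and 51.3% in the control siRNA library. By raw counts among all genes, FN1 ranked 9, TGFBI 15, THBS1 32 and SPARC 136 in the COL17A1 siRNA library, against 3, 12, 18 and 218 in the control siRNA library.

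Among the members that averaged 1 CPM or more, FN1 and HSPG2 were at least 1.5-fold lower in the COL17A1 siRNA library and none was at least 1.5-fold higher. For FN1 this did not hold once ratios were adjusted linearly for exonic size, abundance and GC content, where it stood at -0.46 on the log2 scale, while HSPG2 stayed past 1.5-fold. The filter was passed by 7 of the 10 genes; NID1, NID2 and FBN2 did not pass. A gene was called when its ratio was past 1.5-fold and its interval left out 1, which describes these libraries. By that rule 2 of the 7 were lower, 0 higher and 5 neither, where 11.7% of 13375 tested genes were called lower and 12.2% higher. At 2-fold none of the 7 was called, beside 3.6% lower and 3.04% higher over all tested genes. The median log2 ratio of the 7 was -0.31, against 0.03 over all tested genes. It stayed at -0.32 after the adjustment for exonic size, abundance and GC content. With the length of the principal transcript, an alternative chosen after the data were seen, the median of the 7 was -0.17. All 7 intervals excluded 1 at some size, 6 below and 1 above. So did 32.4% of tested genes on the lower and 33.1% on the higher side, and such calls come easily at high counts.

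FN1, fibronectin 1, was the most abundant of these genes by counts and stood 1.69-fold lower by scaled counts, a call that was lost when adjusted with exonic size, at -0.46, or with principal transcript length, at -0.38, and with an assumed coefficient of variation of 0.2, where the interval reached from -1.55 to 0.05. FN1 (ENSG00000115414, chromosome 2, 215360440 to 215436073, minus strand) had 71458 counts in the COL17A1 siRNA library and 86808 in the control siRNA library, or 3264 scaled CPM with the COL17A1 siRNA and 5506 with the control siRNA. Its log2 ratio was -0.75 [-0.77 to -0.74], at percentile 7.56 of tested genes from the lowest. In GENCODE release 29 no other gene overlaps it. In RNA from a whole culture, fewer cells that make a transcript and less of it per cell cannot be told apart. Gene counts do not show which splice forms of fibronectin, such as those with the extra domains A and B, were present.

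Ratios of counts within a library do not depend on how libraries are scaled, but they keep any trend with gene length, GC content or abundance. By this measure too FN1 was lower against each of the other abundant members. FN1 had 4.01 counts per count of SPARC in the COL17A1 siRNA library and 9.30 in the control siRNA library, a log2 change of -1.21 [-1.25 to -1.17]. Against TGFBI it had 1.38 counts in the COL17A1 siRNA library and 2.21 in the control siRNA library, a change of -0.68 [-0.70 to -0.66]. Against THBS1 it had 1.97 in the COL17A1 siRNA library and 2.83 in the control siRNA library, a change of -0.52 [-0.55 to -0.49]. Against AGRN the change was -0.44 [-0.53 to -0.35] and against TNC -0.38 [-0.52 to -0.25]. The change against SPARC also holds the higher level of SPARC itself, at 0.46. After the adjustment for exonic size, GC content and abundance, FN1 at -0.46 was not below AGRN at -0.50. Against HSPG2, the other member called lower, the change was 0.18 [-0.14 to 0.51], so a shift between those genes was not detectable at this depth. These bracketed intervals are normal approximations on the log scale from the counts.

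HSPG2 encodes perlecan, a large heparan sulfate proteoglycan of basement membranes that binds nidogens, laminins and growth factors. HSPG2 (ENSG00000142798, chromosome 1, 21822244 to 21937310, minus strand) had 132 counts in the COL17A1 siRNA library and 182 in the control siRNA library, or 6.03 scaled CPM with the COL17A1 siRNA and 11.5 with the control siRNA. The log2 ratio was -0.94 [-1.27 to -0.61], 1.91-fold lower, at percentile 4.30 of tested genes. Its interval is the widest of the 7 because its counts are the fewest. AGRN, agrin, the other heparan sulfate proteoglycan, links basement membrane to dystroglycan and clusters acetylcholine receptors at the neuromuscular junction. AGRN (ENSG00000188157, chromosome 1, 1020120 to 1056118, plus strand) had 2293 counts (105 scaled CPM) in the COL17A1 siRNA library and 2053 counts (130 scaled CPM) in the control siRNA library. Its log2 ratio of -0.31 [-0.40 to -0.23] lay within 1.5-fold.

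Of the matricellular genes, which encode secreted proteins that modulate adhesion more than they bear load, TNC and THBS1 lay slightly below 0 and SPARC above it, all within 1.5-fold. TNC, tenascin C, an anti-adhesive hexamer induced in wounds and tumours (ENSG00000041982, chromosome 9, 115019575 to 115118257, minus strand), had 954 counts in the COL17A1 siRNA library and 889 in the control siRNA library. That is 43.6 scaled CPM with the COL17A1 siRNA and 56.4 with the control siRNA, a log2 ratio of -0.37 [-0.51 to -0.24]. THBS1, thrombospondin 1, a trimer that inhibits angiogenesis and can activate latent TGF-beta (ENSG00000137801, chromosome 15, 39581079 to 39599466, plus strand), had 36232 counts (1655 scaled CPM) in the COL17A1 siRNA library and 30687 counts (1946 scaled CPM) in the control siRNA library. Its log2 ratio was -0.23 [-0.26 to -0.21].

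SPARC was the single tested member with more scaled counts in the COL17A1 siRNA library. It encodes a collagen-binding, calcium-binding protein also called osteonectin (ENSG00000113140, chromosome 5, 151661096 to 151686975, minus strand). SPARC had 17805 counts in the COL17A1 siRNA library and 9333 in the control siRNA library, or 813 scaled CPM with the COL17A1 siRNA and 592 with the control siRNA. The log2 ratio was 0.46 [0.42 to 0.49], 1.37-fold, at percentile 80.3 of tested genes, short of the 1.5-fold rule.

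TGFBI was close to equal in the libraries. It encodes a secreted protein with fasciclin domains that binds collagens and integrins and is named for its induction by TGF-beta (ENSG00000120708, chromosome 5, 136028988 to 136063818, plus strand). TGFBI had 51721 counts in the COL17A1 siRNA library and 39204 in the control siRNA library, or 2362 scaled CPM with the COL17A1 siRNA and 2487 with the control siRNA, a log2 ratio of -0.07 [-0.09 to -0.05]. FBN2, fibrillin 2, a microfibril protein of developing tissue (ENSG00000138829, chromosome 5, 128257909 to 128659185, minus strand), had 13 counts in the COL17A1 siRNA library and 19 in the control siRNA library. Its log2 ratio of -1.0 [-2.16 to 0.07] did not exclude equal levels. NID1 (ENSG00000116962, chromosome 1, 235975830 to 236065109, minus strand) and NID2 (ENSG00000087303, chromosome 14, 52004809 to 52069059, minus strand) encode the nidogens, which join the laminin and collagen IV networks.

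**Figure D2:**
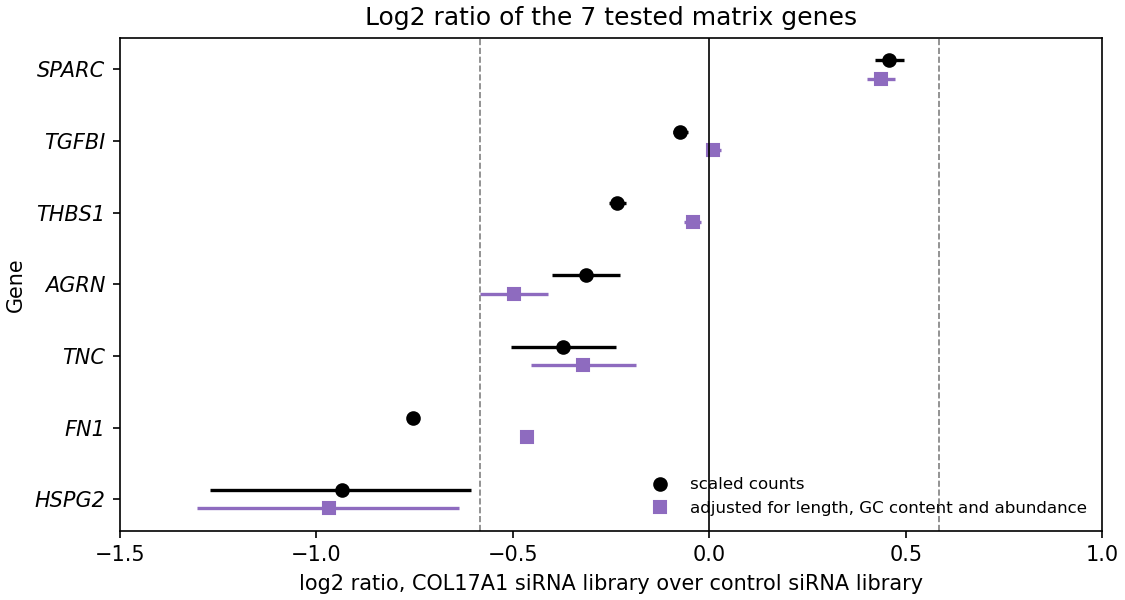
Log2 ratio, COL17A1 siRNA over control siRNA, of the 7 matrix genes that averaged 1 CPM or more; circles are from scaled counts, squares are adjusted for gene length, GC content and abundance, lines are exact 95% intervals of counting error and dashed lines mark 1.5-fold. HSPG2 lies past the lower line in both, FN1 lies past it at -0.75 by scaled counts and inside it at -0.46 after the adjustment, and SPARC alone lies clearly above 0.

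**Figure D3:**
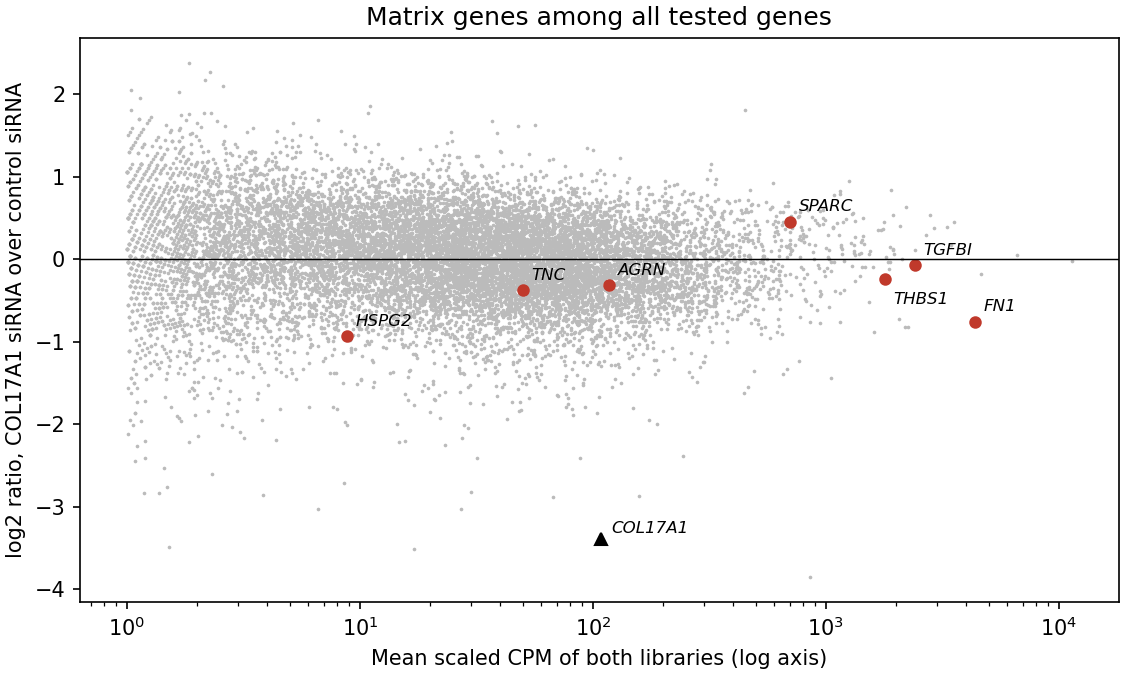
Log2 ratio against mean scaled CPM (log axis) of 13375 tested genes in grey, with the 7 tested matrix genes in red and COL17A1 as a triangle. FN1 lies to the lower right at -0.75, HSPG2 at low abundance at -0.94, and the other 5 lie between -0.37 and 0.46.

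Long genes tended to lie lower in the COL17A1 siRNA library, and most of these genes are long. Among the 2675 tested genes with the largest exonic size, from 8874 bases up, the median log2 ratio was -0.25 and 20.8% were called lower, against 0.37 and 5.15% among the 2678 with the smallest, up to 2776 bases. Of the 7 tested members 5 belong to those largest genes, FN1, TNC, THBS1, HSPG2 and AGRN. After a linear adjustment over all tested genes for exonic size, GC content of the transcripts and abundance, FN1 was at -0.46 [-0.48 to -0.45], under 1.5-fold, and HSPG2 at -0.97 [-1.30 to -0.64], still past it. AGRN was then at -0.50, TNC at -0.32, THBS1 at -0.04, TGFBI at 0.01 and SPARC at 0.44. After it 8.61% of tested genes were called lower and 8.12% higher, beside 1 of the 7 members lower and 0 higher. With principal transcript length in place of exonic size, an alternative chosen after the data were seen, FN1 was at -0.38, HSPG2 at -0.76, SPARC at 0.53 and THBS1 at 0.15. Why long genes lay lower was not tested.

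Some members share their locus with other annotated genes, and the strand setting of the counting is not given. SPARC overlaps the antisense RNA gene CLMAT3, which had 30 counts in the COL17A1 siRNA library and 7 in the control siRNA library. THBS1 overlaps FSIP1 on the other strand, with 21 counts in the COL17A1 siRNA library and 26 in the control siRNA library, and AC037198.1 on its own strand, with 14 in the COL17A1 siRNA library and 9 in the control siRNA library. DEC1, across from TNC, had 1 count in the COL17A1 siRNA library and 3 in the control siRNA library. LDLRAD2, across from HSPG2, had 2 in the COL17A1 siRNA library and 0 in the control siRNA library, and SLC27A6, across from FBN2, had 0 in both. RTRAF, on the strand opposite to NID2, had 3535 counts in the COL17A1 siRNA library and 2157 in the control siRNA library. The overlapping genes of the 7 tested members had at most 30 counts each. The 7-base words GCTAATG and TCGGAGA, which were chosen with results of these data in view, stood in the longest annotated 3' UTR of 0 of the 10 members. They stood in 9.18% and 2.99% of tested genes with a 3' UTR sequence. At shares this low, 0 of 10 is not unusual, and no conclusion is drawn from it.

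The deposited annotation groups the members as secreted matrix proteins. All 10 carry the cellular component collagen-containing extracellular matrix, which 1.21% of tested genes carry, and 8 carry basement membrane, which THBS1 and FBN2 lack. Binding of calcium ions is assigned to 7 members and collagen binding to 5, FN1, SPARC, TGFBI, NID1 and NID2. Whole sets of such genes held more called lower than higher, where 11.7% of all tested genes were called lower and 12.2% higher, and 20.8% lower among the largest genes. Of 44 tested genes of the term extracellular matrix structural constituent, 4 of them members, 12 were called lower and 2 higher, with a median of -0.28. COL12A1, a fibril-associated collagen, was at -1.13 [-1.26 to -1.0], COL4A1, of the basement membrane collagen network, at -0.97 [-1.07 to -0.88] and COL24A1, a fibrillar collagen, at -1.96 on 10 counts with the COL17A1 siRNA and 29 with the control siRNA, beside the targeted COL17A1. Of 62 tested genes of the term basement membrane, 6 of them members, 13 were lower and 4 higher around -0.22, with ADAMTS1, a secreted protease, at -1.04 [-1.13 to -0.94] and TGFB2, a TGF-beta ligand, at -1.54 [-1.71 to -1.37]. Of 67 tested genes of the pathway ECM-receptor interaction, 5 of them members, 15 were lower and 2 higher around -0.28. That pathway as deposited also holds OGFR, an opioid growth factor receptor gene, at 1.16 [1.00 to 1.32], and ENSG00000282936, at -3.49 on 5 counts with the COL17A1 siRNA and 44 with the control siRNA. After the adjustment 8 structural constituent genes were lower and 2 higher around -0.24, 9 basement membrane genes lower and 1 higher around -0.08, and 9 genes of the pathway lower and 2 higher around -0.22, beside 8.61% of all tested genes lower and 8.12% higher. The basement membrane median was also smaller with the length of the principal transcript, at -0.03, and with no filter on low counts, at -0.10. These sets contain COL17A1 or share genes with each other, so they are not independent. By scaled counts the genes called lower include FN1 in each set and HSPG2 in the basement membrane and pathway sets. They also include the targeted COL17A1 in the structural constituent and basement membrane sets.

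Relatives of the members in the same assemblies went both ways. Over all tested genes 12.2% were called higher and 11.7% lower, and 8.12% higher and 8.61% lower after the adjustment. The 12 tested matricellular relatives had a median of -0.18, with 1 called lower and 0 higher, and the median was -0.05 both without a filter on low counts and at 5 CPM or more, and -0.10 with the length of the principal transcript. THBS2, the paralog of THBS1, was lower at -0.94 [-1.10 to -0.78], with 560 counts in the COL17A1 siRNA library and 774 in the control siRNA library. CCN1, an integrin ligand and the most abundant of them at 1549 scaled CPM with the COL17A1 siRNA and 1360 with the control siRNA, was at 0.19, FSTL1, a SPARC relative, at -0.08 and SPOCK1, a testican proteoglycan, at -0.29. Microfibril and elastic fibre genes had a median of 0.02, with 2 of 10 tested genes higher and 0 lower, and 0 called after the adjustment. EFEMP2, fibulin 4, was at 0.69 [0.23 to 1.18] and MFAP2, a microfibril protein, at 0.71 [0.16 to 1.30], and neither was called after the adjustment, at 0.46 and 0.35. LTBP2, a latent TGF-beta binding protein relative, was at -0.34 and EFEMP1, fibulin 3, at 0.25.

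Basement membrane linkers and proteoglycans other than the members had a median of 0.28, with 2 of 15 tested genes higher and 1 lower. The median was 0.09 after the adjustment and 0.13 with the length of the principal transcript. Over all tested genes 12.2% were higher and 11.7% lower, so these few calls are not read as a result about the list. After the adjustment those shares were 8.12% and 8.61%. VWA1, a perlecan-binding protein, was higher at 1.04 [0.85 to 1.24] with 846 counts in the COL17A1 siRNA library and 295 in the control siRNA library, while HSPG2 itself was lower. NTN1, netrin 1, was at 0.79 [0.09 to 1.58] and, after the adjustment, at 0.58, just under 1.5-fold. MATN2, a matrilin named after its values were seen, was at 0.52 and, after the adjustment, at 0.61, past 1.5-fold. EGFLAM, pikachurin, was at -1.44 [-2.61 to -0.42] on 12 counts with the COL17A1 siRNA and 24 with the control siRNA, and TINAGL1, a tubulointerstitial nephritis antigen relative, at 0.28. The 18 tested other glycoproteins and secreted matrix-binding proteins had a median of 0.47, and of 0.23 after the adjustment, and 6 of them were higher and 1 lower, against 2 higher and 1 lower after the adjustment. LGALS1, galectin 1, was at 0.76 [0.67 to 0.86], LGALS3BP, which binds galectins, at 0.68 and IGFBP7, a secreted binding protein, at 0.67. TGFB1I1, a focal adhesion adaptor inside the cell that this list also holds, was at 0.83. After the adjustment LGALS1, LGALS3BP and IGFBP7 were at 0.27, 0.36 and 0.48, under 1.5-fold.

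The receptors of the members were mostly within 1.5-fold. Their 17 tested genes had a median of -0.15, with 3 called lower and 0 higher, beside 11.7% of all tested genes lower and 12.2% higher. With the length of the principal transcript the median was -0.02. After the adjustment it was -0.07, with 2 lower and 1 higher, beside 8.61% of all tested genes lower and 8.12% higher. The gene then higher was CD47, a thrombospondin receptor, at 0.24 by scaled counts and 0.60 after the adjustment, and it was named after its values were seen. ITGA4, an integrin subunit that binds fibronectin, was at -1.63 [-1.91 to -1.37] with 167 counts in the COL17A1 siRNA library and 373 in the control siRNA library. ITGA2, of a collagen receptor, was at -0.87 [-0.93 to -0.81], and ITGB1, the partner chain of both, at -0.62 [-0.67 to -0.58] and at -0.20 after the adjustment. ANXA2, a surface-associated annexin that binds tenascin C, was at 0.08. ITGA5, the alpha chain of the main fibronectin receptor, was at -0.03 [-0.10 to 0.05] with 3406 counts in the COL17A1 siRNA library and 2497 in the control siRNA library, and DAG1, dystroglycan, which binds agrin and perlecan, at 0.41 [0.33 to 0.49]; both were named after their values were seen.

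Of 18 tested genes of matrix processing and assembly 0 were called by scaled counts and 1 was lower after the adjustment, with medians of 0.03 and 0.06. For this list and the next, the shares over all tested genes were 12.2% higher and 11.7% lower. After the adjustment they were 8.12% and 8.61%. TGM2, which crosslinks fibronectin, was at 0.10, LOXL2, a lysyl oxidase, at 0.31, POFUT1, a fucosyltransferase, at -0.08 and FURIN, a proprotein convertase, at -0.40 and, after the adjustment, at -0.64, past 1.5-fold. The 12 tested TGF-beta pathway genes had a median of -0.16, and 3 of them were lower and 0 higher, against a median of -0.10 with 2 lower and 0 higher after the adjustment. TGFB2, given above, was one of them. TGFBR2, the type II receptor, was lower too, at -0.60 [-0.67 to -0.53] and, after the adjustment, at -0.47, under 1.5-fold, and SMAD3 was at -0.22. TGFBI, given above, was at -0.07, and activity of the pathway was not measured.

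**Figure D4:**
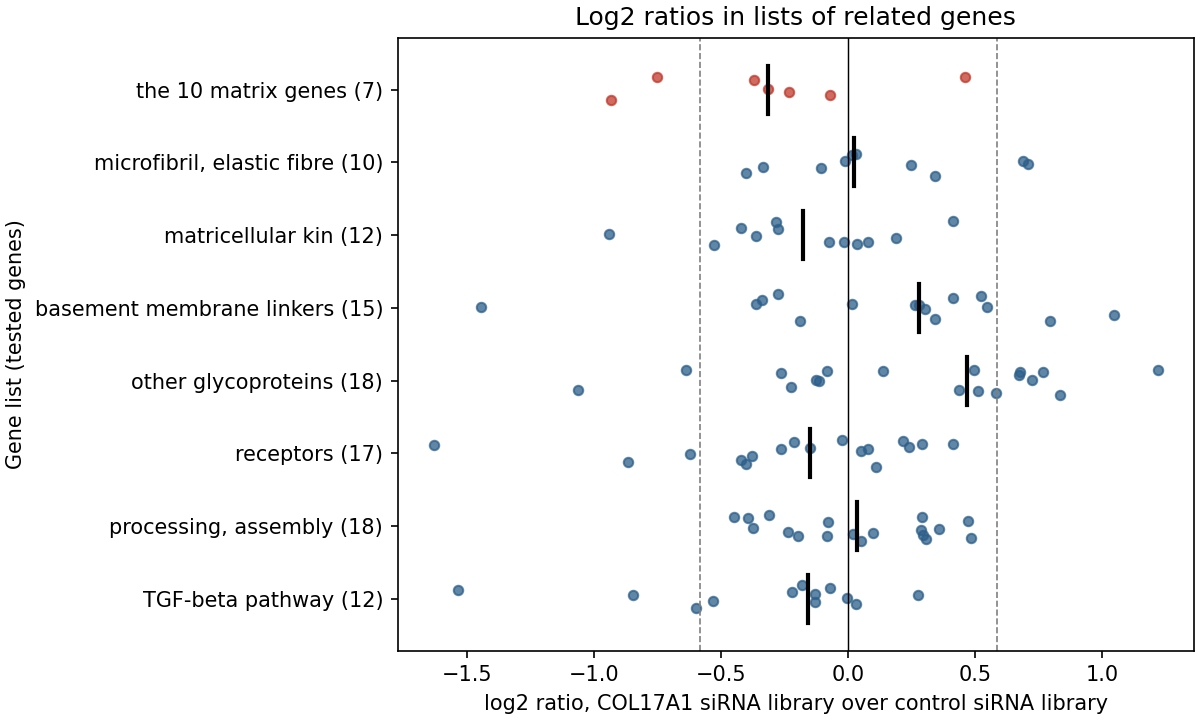
Log2 ratio, COL17A1 siRNA over control siRNA, of each tested gene in the matrix gene group (red) and in 7 lists of related genes (blue), with the number of tested genes in parentheses; black bars are medians, dashed lines mark 1.5-fold and the vertical scatter has no meaning. The medians run from -0.31 for the matrix genes to 0.47 for the other glycoproteins, and genes lie on both sides of 0 in every list.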

How the data were processed

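Polyadenylated RNA of SAS cells was sequenced as paired ends, per the labels, with a stranded kit or an equivalent. The deposited table holds raw counts per gene made by the authors, and FPKM values per the file headers, which a recalculation from counts, exonic sizes and column totals matched within 0.0051 for 100% of genes. Per the submitters' processing notes, STAR, HISAT2, edgeR and the builds hg38 and GRCh38 were named. The tool and annotation used for counting are not stated in the sources here.

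Counts were scaled with TMM (edgeR 4.0.16, R 4.3.3). The log2 ratio used counts plus 0.5, with an exact Clopper-Pearson 95% interval from both counts. Tested were the 13375 genes averaging 1 CPM or more. A count of 0 was taken to allow 3 counts. Intervals cover counting error only, as each group has a single library. The reads carried no molecular identifiers. The adjustment was a linear fit over 13258 genes with a GC content from GENCODE 29, with ratios limited to 3 in size; the fit took up 0.205 of the variance. The ratio, interval, call and linear fit were tested on simulated data with counting error only. The simulation did not include TMM scaling, variation between cultures or a trend with gene length.

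The members and lists were chosen with earlier results of these data known. Named are all members, COL17A1 and, in each list, up to 4 called genes whose interval bound lay farthest from 1, filled up by abundance; genes named in 2 lists, and markers beyond the defining ones, are given once or as sums. A TGF-beta pathway gene that this rule names is not reported here. Alternatives were DESeq2 1.42.0 size factors, library totals, an offset of 2, the FPKM plus 0.1, other filters and rules, an assumed coefficient of variation of 0.2 and the adjustments. Other software was scipy 1.17.1, numpy 2.4.6, matplotlib 3.10.9 and pandas 2.3.3 under Python 3.11.15. Promoters came from RefSeq, where AGRN was not matched.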

Additional observations from a re-analysis of the deposited data

How the results depend on the processing

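Under DESeq2 size factors, library totals, FPKM with 0.1 added, an offset of 2, and scaling without the members or without FN1, each of the 7 tested members kept its direction and its side of the 1.5-fold rule, with FN1 between -0.77 and -0.72 and HSPG2 between -0.96 and -0.73. The adjustment for length, GC content and abundance brought FN1 to -0.46 and left 1 member called lower and 1076 tested genes called higher. It brought TGFBI to 0.0100 [-0.009 to 0.029], on the other side of 0 but with an interval that includes 0. With the length of the principal transcript FN1 was at -0.38, THBS1 at 0.15, on the other side of 0, 1 member was called lower, and 774 tested genes were called higher and 868 lower. That fit covers only tested genes with an annotated principal transcript, a smaller set, and how far this lowered the counts was not tested. With an assumed coefficient of variation of 0.2 the interval of FN1, at -0.75, reached from -1.55 to 0.05 and the call was lost, while that of HSPG2 reached from -1.80 to -0.07; 1 member remained called, and 532 tested genes were higher and 715 lower. With the 2-fold rule 0 members were called, beside 407 tested genes higher and 481 lower. The 2-fold rule and the wider interval call fewer genes by construction; for the other changes the cause was not tested. No paired analysis was possible because each group has 1 library. At 1 or 2 counts in each library NID1 and NID2 are limited by depth, as is FBN2 at 13 counts in the COL17A1 siRNA library and 19 in the control siRNA library.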
